A study of Mus musculus with 4 samples.

Results

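Elongating RNA polymerase II, recognised by phosphorylation of serine 2 in its C-terminal domain and named POL2 in the labels, was mapped by chromatin immunoprecipitation and sequencing in whole mouse uterus at 2 stages. The members described here are all called POL2 intervals on chromosomes 1 to 19, taken from both POL2 lists with no further choice. They number 24315 of the 35977 intervals of the series, 9791 from postnatal day 12 (PD12) and 14524 from the adult. The adult library is labelled with days 2.5 and 3.5 of pseudopregnancy together, and the sources used here name no strain, genotype or number of animals. Each stage had 1 POL2 library, so no difference between the stages has a replicate check and no p-value is given. The lists hold positions alone, so the depth of the libraries is unknown, and list length depends on depth and on the caller's threshold.

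RNA polymerase II begins transcription near the start of a gene and then moves along the gene body. During this elongation, kinases that include CDK9 and CDK12 phosphorylate serine 2 of its tail, a form that tends to build up towards the end of the gene and beyond the site where the transcript is cut. An interval of serine 2 phosphorylated polymerase is therefore read in the field as a body of active transcription rather than as a binding site. At PD12 the mouse uterus is forming its glands from the luminal epithelium and its muscle layers are maturing. Pseudopregnancy follows mating with a sterile male, and its first days are dominated by rising progesterone and the preparation of the endometrium for an embryo. Whole uterus mixes epithelium, stroma, muscle and vessels, so more cells of a type and more polymerase per cell cannot be told apart.

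The question put to these lists was which genes carried elongating polymerase at each stage, and it could be answered only for regions. The build of the files is not named, and 198 POL2 domains on 9 of the 19 chromosomes began beyond the last gene of the GRCm38.p6 gene table. The positions were therefore taken not to be on GRCm38, and genes or sequence on the build of the files were not used here. Gene bodies, gene names and functions were for that reason not assigned, and regions are given by chromosome, start and end as in the files. Called intervals are termed domains below, and "covered" means lying in a domain.

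Most domains spanned several kilobases, and the median width was 5400 bp for PD12 and 4800 bp for the adult. Width, like list length, can depend on depth and on the caller, and the part of these in the widths was not tested. At PD12, 4143 domains (42.3%, 95% exact binomial interval 41.3 to 43.3) were wider than the widest FOXA2 interval of the series, which measured 6346 bp. In the adult this held for 5318 domains (36.6%, 35.8 to 37.4). These intervals, like all binomial intervals below, cover counting error alone, and domains of a library are not replicates. Both shares rest on a single FOXA2 width. An adult FOXA2 interval of that width, chr17:39979544-39985889, had nearly the same ends as an adult POL2 domain, as given below. Its ends were not on the 200 bp grid on which all POL2 domains start and end. The adult POL2 list held relatively more narrow domains, with 403 under 1 kb (2.77%) against 124 (1.27%) at PD12. It also held more wide ones in number, with 471 domains of at least 20 kb against 366 and 30 of at least 50 kb against 24. Cover was concentrated to a like degree at both stages. The widest 10% of domains held 29.5% of the covered bases at PD12 and 31.0% in the adult, and 50% of the bases lay in the 2267 widest PD12 domains, down to 9200 bp, and in the 3173 widest adult domains, down to 8600 bp.

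**Figure D1:**
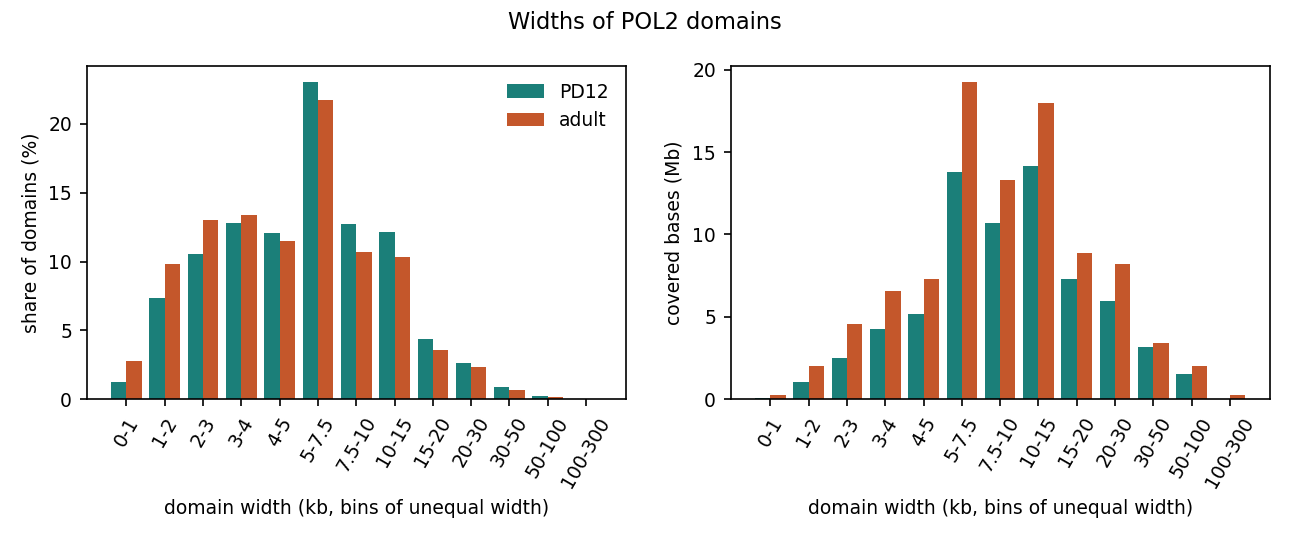
Share of domains (left, percent) and covered bases (right, Mb) by domain width in kb, at PD12 and in the adult, with bins of unequal width. Domains under 1 kb made up 1.27% of the PD12 list and 2.77% of the adult list, and the adult covered more bases in every width bin drawn.

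Cover came to 69.6 Mb for PD12 and to 94.0 Mb for the adult. Bases in both lists came to 50.2 Mb, or 72.0% of the PD12 cover and 53.3% of the adult cover. PD12 alone covered 19.5 Mb and the adult alone 43.9 Mb. The excess of the adult list was present on all 19 chromosomes, though to unequal degrees. The ratio of adult to PD12 cover was lowest on chromosome 17, at 1.16 (3.35 Mb for PD12 and 3.89 Mb for the adult), and on chromosome 7, also at 1.16 (5.91 and 6.87 Mb). It was highest on chromosome 3, at 1.57 (3.07 and 4.82 Mb), followed by chromosome 19, at 1.52 (2.49 and 3.78 Mb), and chromosome 6, at 1.501 (3.38 and 5.08 Mb). Chromosome 11 carried most cover at both stages, with 6.24 and 8.34 Mb, and chromosome 18 least, with 2.11 and 2.99 Mb. Chromosome 19 kept the largest share of its PD12 cover in the adult list (77.9%) and chromosome 17 the smallest (66.2%).

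**Figure D2:**
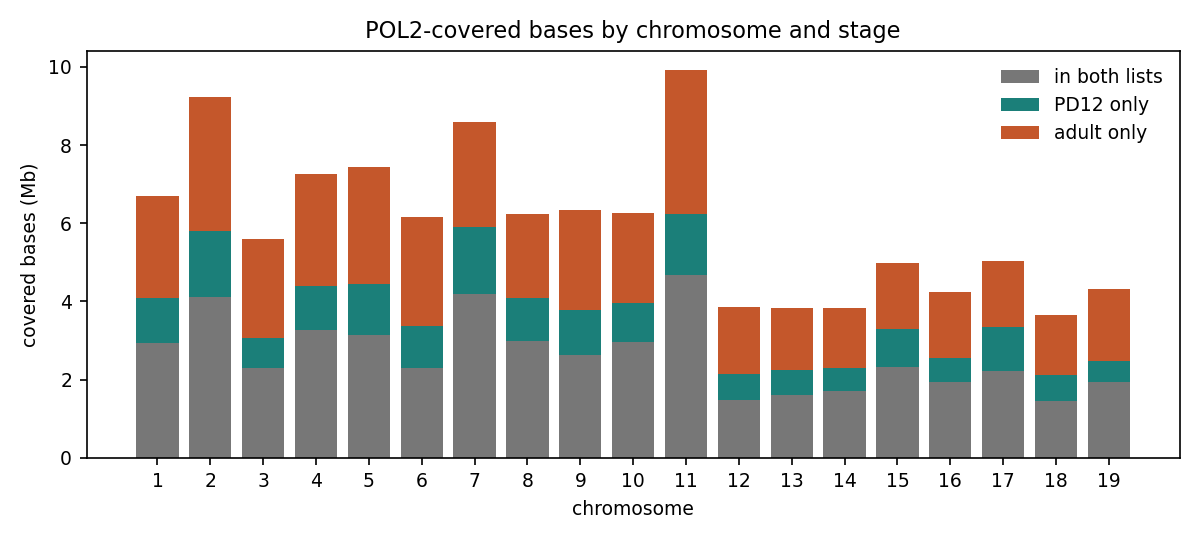
POL2-covered bases (Mb) on each of chromosomes 1 to 19, stacked as bases in both lists, at PD12 alone and in the adult alone. Adult-only bases exceed PD12-only bases on every chromosome drawn, least on chromosome 17 (1.67 against 1.13 Mb).

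The bases covered at a single stage lay in different settings at PD12 and in the adult. At PD12, 58.0% of the 19.5 Mb lay in domains that also touched an adult domain. Of these, 9.56 Mb reached past the outer ends of the adult domains there, and 1.73 Mb lay between adult domains. In the adult, 36.03% of the 43.9 Mb lay in domains touching a PD12 domain, with 13.9 Mb past the outer ends and 1.93 Mb between. The larger part of the adult-only bases, 28.1 Mb (64.0%), was in 6599 domains that touched no PD12 domain. The same class held 8.18 Mb in 1961 domains at PD12. The order of the stages was turned in 1 alternative. When narrow domains were dropped from the adult list until it covered as many bases as that of PD12, 28.5% of the PD12-only bases and 48.5% of the adult-only bases lay in domains touching the other list. That alternative changes the length of the adult list and its widths together, so neither was tested alone. Without domains under 5 kb at both stages, the shares were 43.8% and 30.6%.

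Separate domains also lay farther from the other list in the adult. The median distance from an adult domain without overlap to the nearest PD12 domain was 23.8 kb (interquartile range 7.2 to 73.2), and the reverse distance was 13.6 kb (3.8 to 48.0). The PD12 list has fewer domains to be near, and that part of the difference was not tested. Domains over 50 kb away held 8.65 Mb in 2158 domains in the adult and 2.01 Mb in 471 domains at PD12. The widest of these distant adult domains was chr9:48523800-48597799 (74.0 kb). The next were at chr13:24784200-24832799 (48.6 kb), chr6:31134400-31171999 (37.6 kb), chr9:48486800-48522999 (36.2 kb), and chr3:65336400-65368599 (32.2 kb). The widest distant PD12 domains were shorter. After the 32 kb domain on chromosome 19 and the 21.0 kb one on chromosome 10, they were at chr14:34735200-34753799 (18.6 kb), chr3:37296000-37313599 (17.6 kb), and chr2:33091600-33108399 (16.8 kb).

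**Figure D3:**
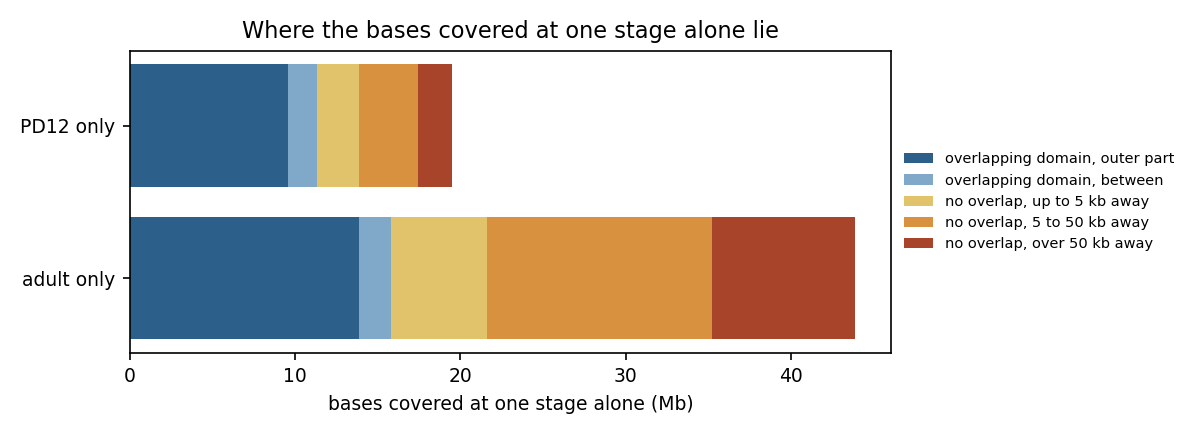
Bases covered at 1 stage alone (Mb), split by whether their domain overlaps a domain of the other stage and, if not, by its distance to the nearest one. The parts in overlapping domains come to 58.0% of the PD12-only bases and 36.03% of the adult-only bases.

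Where a domain had a single partner in the other list, the median widths were similar, though single pairs differed in both directions. There were 5402 such pairs, made of 55.2% of PD12 domains and 37.2% of adult domains. The PD12 partners had a median width of 5600 bp and the adult partners one of 6200 bp, with a median difference of 400 bp, which is 2 steps of the 200 bp grid on which all domains start and end. The adult partner was wider in 2954 pairs (54.7%, 53.3 to 56.0) and the PD12 partner in 2230 (41.3%). It reached past both PD12 ends in 1405 pairs (26.0%), and the PD12 partner reached past both adult ends in 886 (16.4%). Over the 10804 ends of these pairs, the median distance between stages was 1000 bp. Ends fell within 1000 bp of each other in 54.7% of cases, at the same grid position in 9.11%, and over 5000 bp apart in 6.18%. The adult partner was at least 2 times as wide in 674 pairs (12.5%), and the PD12 partner in 413 (7.65%).

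Domains split and joined in both directions. A PD12 domain spanned 2 or more adult domains in 988 cases (10.1%), with at most 6 adult domains under 1 PD12 domain. An adult domain spanned 2 or more PD12 domains in 869 cases (5.98%), with at most 13. To compare whole regions rather than pieces, neighbouring domains, whatever their stage, were linked over gaps no longer than 5 kb, which gave 11112 stretches. Both stages had cover in 5696 stretches, the adult alone in 4216 and PD12 alone in 1200. Among 268 stretches of at least 20 kb with at least 80% cover at both stages, PD12 had more pieces in 76, the adult in 84, and the number was equal in 108. The median was 2 pieces at each stage, and neither stage had more pieces in most of these regions.

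Stretches of at least 10 kb were compared by the share of their length that was covered. There were 3773 of them, with a median cover of 65.9% at PD12 and 81.6% in the adult. The median difference, adult minus PD12, was 14.0 percentage points (interquartile range -9.64 to 43.3). In 1734 stretches (46.0%) the shares were within 25 points of each other. A difference of 50 points or more is called here, as a rule of size and not a test. The adult was higher by that much in 805 stretches, which is 21.3% of those compared, and PD12 was higher in 228, which is 6.04%. The remaining 2740 (72.6%) differed by less.

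The split of called stretches was less uneven between lists of equal cover. Of the 1033 called, 77.9% were higher in the adult. When the adult list was reduced to its 6495 widest domains, so that both stages covered 69.6 Mb, 3320 stretches were compared, of which 553 were higher in the adult and 416 at PD12, so that 57.1% were higher in the adult. The reduction removes adult domains narrower than 5400 bp, so it takes cover from the adult side alone, and the length of the list and its widths were not varied apart.

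**Figure D4:**
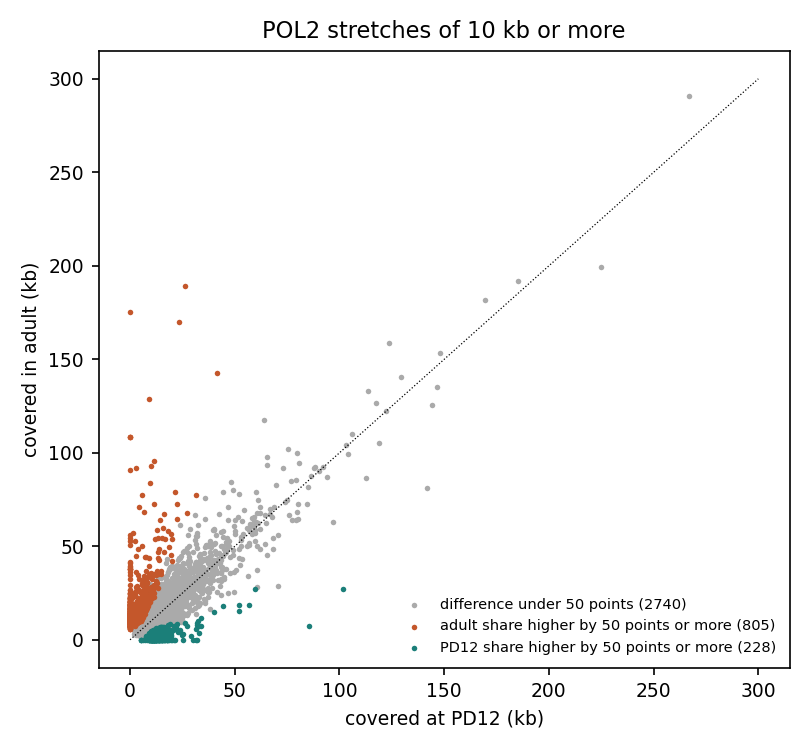
Bases covered in kb at PD12 (horizontal) and in the adult (vertical) in each of the 3773 stretches of 10 kb or more, coloured by the difference in covered share, with a dotted line at equality. The widest stretch lies at 266.8 and 290.6 kb, and the 805 stretches higher in the adult outnumber the 228 higher at PD12.

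Most called stretches were in the shortest class in both directions, and each length class held calls of both kinds. Between 10 and 20 kb, 540 of 2241 stretches (24.1%, 22.3 to 25.9) were more covered in the adult and 184 (8.21%, 7.11 to 9.42) at PD12. Between 20 and 50 kb it was 217 of 1271 (17.1%, 15.0 to 19.3) and 38 (2.99%, 2.12 to 4.08). Between 50 and 100 kb it was 38 of 221 (17.2%, 12.5 to 22.8) and 5 (2.26%, 0.739 to 5.20). Of the 40 stretches of 100 kb or more, 10 (exact interval 12.7 to 41.2%) were more covered in the adult and 1 (2.50%, 0.0633 to 13.2) at PD12. Within this longest class the median cover was 77.0% at PD12 and 88.0% in the adult.

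The share of stretches called in each direction also varied by chromosome. Calls in favour of the adult ranged from 16.7% on chromosome 17 (29 of 174, 11.5 to 23.1) and 16.8% on chromosome 7 (47 of 280, 12.6 to 21.7) to 30.0% on chromosome 6 (64 of 213, 24.0 to 36.7). Calls in favour of PD12 ranged from 2.88% on chromosome 19 (4 of 139, 0.790 to 7.20) to 8.21% on chromosome 7 (23 of 280, 5.28 to 12.1). The limits of most chromosomes overlapped, which does not show that their shares are alike.

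Many called stretches kept some cover at the lower stage. Of the 805 higher in the adult, 391 (48.6%) had no PD12 cover and 414 had a median of 4.9 kb in 1 PD12 domain. Of the 228 higher at PD12, 85 (37.3%) had no adult cover and 143 had a median of 4.0 kb in 1 adult domain. The centre of the remaining cover was in the outer 20% at either end of the stretch in 162 of the 414 (39.1%, 34.4 to 44.0) and in 58 of the 143 (40.6%, 32.4 to 49.1). Those end parts make up 40% of a stretch. The centre of a domain cannot reach the very end, so 40% is not the share that random placement would give. Whether the remaining cover lay at the ends more often than that was not tested.

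The stretches with most covered bases were largely the same at both stages. Of the 15 with most cover at each stage, 10 were in both lists. The longest was the 290.6 kb stretch at chr1:170074000-170364599, with 266.8 kb covered at PD12 in 13 domains and all of it in the adult in 1 domain. It was followed by chr2:115674400-115906999, with 225 kb covered at PD12 in 9 domains and 199.6 kb in the adult in 14. Next came chr14:26271400-26493999, with 185.4 kb in 7 PD12 domains and 191.8 kb in 16 adult domains. These 3 regions were covered along more than 80% of their length at both stages, and differed mainly in how the cover was broken into domains.

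Other regions among the 15 most covered at PD12 were also nearly filled at both stages. The region chr7:80516400-80705999 had 169.6 kb covered at PD12 and 181.6 kb in the adult. The region chr8:34881600-35042399 had 148 and 153.4 kb, and chr11:18766600-18923599 had 146.4 and 135 kb. The region chr16:43494000-43649599 had 144.4 and 125.4 kb, and chr3:122770400-122897799 had 122.2 and 122.6 kb. Cover was lower at 1 stage in chr8:105150400-105311399 (76.8% at PD12), chr8:87205400-87340599 (78.0% in the adult) and chr10:98374200-98501199 (68.2% in the adult). The least balanced of the 15 most covered at PD12 was chr5:125485000-125649999, where 141.6 kb (85.8%) was covered at PD12 and 81.2 kb (49.2%) in the adult. No stretch of these 15 reached a difference of 50 points.

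Of the 15 stretches most covered in the adult, 5 were called as higher there. The largest were at chr5:107524400-107718799 (189.4 kb in the adult and 26.2 kb at PD12), chr9:48451800-48646399 (175.2 kb and none), and chr6:30999000-31171999 (169.8 and 23.2 kb). On chromosome 5 the PD12 cover was in 2 domains, at 0.8 to 18.4 kb and 30.8 to 39.4 kb from the lower-numbered end of the stretch. On chromosome 6 it was in 3 domains, between 4.2 and 48.8 kb from that end. In both, the PD12 cover was confined to the first 50 kb, while the adult domains ran on to the other end. The other 2 were at chr11:76054800-76215999 (142.6 and 41.6 kb) and chr18:64684600-64821599 (128.6 and 9.2 kb).

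Among the 15 stretches with the largest adult excess in bases, which ranged from 66.8 to 175.2 kb, all were called as higher in the adult and 5 had no PD12 cover. A pair of those 5 were neighbours on chromosome 19. They were chr19:17656000-17771199 (108.4 kb of adult cover in 9 domains) and chr19:17781800-17912399 (108.6 kb in 12 domains). Close by, chr19:17623600-17648199 was a single adult domain of 24.6 kb with no PD12 cover. It was also the longest of 127 stretches of at least 10 kb that were covered in full in the adult and not at all at PD12. The others with no PD12 cover among the 15 were at chr9:48451800-48646399 (175.2 kb in the adult), chr13:24718600-24832799 (108.4 kb) and chr3:79444800-79542399 (91 kb). Little PD12 cover was listed at chr4:53072000-53173199 (91.6 kb in the adult and 3 kb at PD12), chr12:71925800-72009599 (77.4 and 5.6 kb), and chr9:115992400-116085999 (92.8 and 9.8 kb).

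The largest excesses at PD12 were smaller, with 85.6 against 7.4 kb for the first of the 15 stretches and 29.2 against 1.8 kb for the last, and 11 of the 15 were called as higher at PD12. The largest was the single PD12 domain at chr8:91043600-91129199, which covered 85.6 kb, where the adult list had 7.4 kb in 1 domain at 73 to 80.4 kb from the lower-numbered end. The next was chr7:137297800-137406399, with 101.6 kb covered at PD12 in 6 domains and 27 kb in the adult in 4 separate pieces. Others of the 15 were chr17:46681800-46769999 (70.8 and 28.6 kb) and chr17:56527000-56585999 (52 and 15.4 kb). Chromosome 7 also held chr7:140201200-140265599 (59.8 and 27 kb) and chr7:108014600-108085799 (60.6 and 28.2 kb). The region chr1:40030800-40090799 had 56.6 and 18.8 kb, and chr8:8612000-8667399 had 52.2 and 18.6 kb. Only 3 of the 15 had no adult cover, at chr19:56978600-57010599 (32 kb at PD12), chr2:93083800-93124199 (31.6 kb), and chr10:5706200-5736999 (30 kb). Stretches of at least 10 kb covered in full at PD12 and not at all in the adult numbered 45. The second longest of them was the chromosome 14 domain of 18.6 kb named above.

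**Figure D5:**
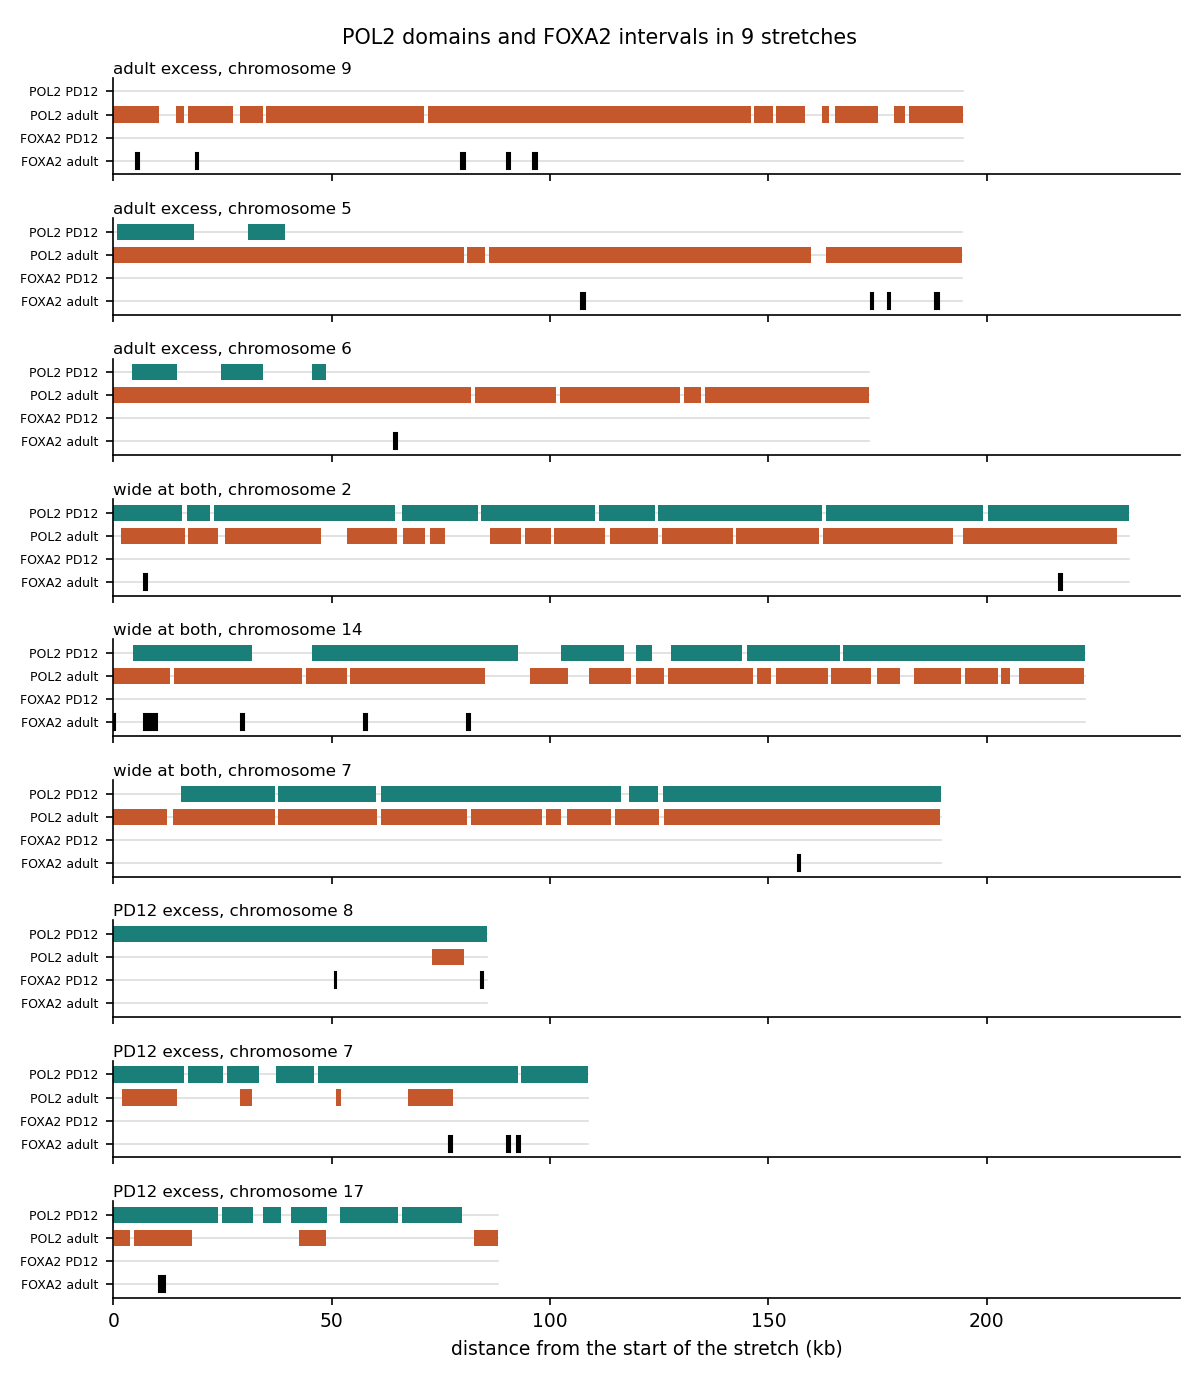
POL2 domains (upper pair of rows, PD12 and adult) and FOXA2 intervals (lower pair, black) in 9 stretches, drawn to 1 scale as distance in kb from the start of the stretch. The first 3 had the largest adult excess (175.2, 163.2 and 146.6 kb), the next 3 were among those with most cover at both stages, and the last 3 were covered over 85.6, 101.6 and 70.8 kb at PD12 against 7.4, 27 and 28.6 kb in the adult.

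FOXA2, a forkhead factor of the uterine gland epithelium, was mapped in the same tissues and played no part in sorting the stretches. On chromosomes 1 to 19 its lists held 807 intervals at PD12 and 10235 in the adult. Fewer PD12 than adult FOXA2 intervals in a set of stretches is therefore not read as a trait of that set. Adult FOXA2 intervals were present in 208 of the 805 stretches more covered in the adult (25.8%, 22.8 to 29.0), in 34 of the 228 more covered at PD12 (14.9%, 10.6 to 20.2), and in 789 of the 2740 others (28.8%, 27.1 to 30.5). Per Mb of stretch there were 15.3, 10.01 and 14.7 adult FOXA2 intervals. The limits for stretches higher at PD12 lay below those of both other classes, whose own limits overlapped, which does not show that these are alike. The limits treat stretches as independent and are not a test. Yet 251 of the 805 stretches (31.2%) and 38 of the 228 (16.7%) lay within 100 kb of another of their class. The classes differed in length too, with medians of 15.6, 14.3 and 18.4 kb, and the part of length in these shares was not tested. PD12 FOXA2 intervals were present in 15 (1.86%, 1.05 to 3.05), 9 (3.95%, 1.82 to 7.36) and 122 (4.45%, 3.71 to 5.29) of these stretches. Per Mb of stretch there were 0.864, 2.44 and 1.90 PD12 FOXA2 intervals, from 15, 10 and 128 intervals. Stretches higher at PD12 came first by this measure, on 10 intervals alone, and the uncalled ones by share. No limits were computed for the values per Mb. By share, the limits for stretches higher in the adult lay below those of the uncalled ones and overlapped those of stretches higher at PD12. No test over samples is possible for these shares, since each list is 1 library.

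Among the 15 stretches with the largest adult excess, 11 held adult FOXA2 intervals, 29 in all, and none held a PD12 one. They were 78 to 194.6 kb long. Adult FOXA2 intervals were also in 12 of the 15 stretches with most cover at PD12, which were 127 to 290.6 kb long and none of them called. Those 15 held 24 adult FOXA2 intervals and 1 PD12 interval. Among the 15 of largest adult excess, the most were 6 in chr14:120674400-120752399 (adult cover 71.2 kb, PD12 cover 4.4 kb). The chromosome 9 stretch at 48451800 held 5. Among the 15 most covered at PD12, the most were also 6, in chr14:26271400-26493999. The neighbouring chromosome 19 stretches held none of either stage. The part of length in these counts was not tested. The 15 stretches with the largest PD12 excess were 30.8 to 165 kb long. Of these, 8 held adult FOXA2 intervals, 13 in all, and 1 held PD12 intervals. That was the chromosome 8 stretch at 91043600, with 2 PD12 intervals and no adult one. The chromosome 7 stretch at 137297800 held 3 adult FOXA2 intervals and no PD12 one, although its POL2 cover was higher at PD12.

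A few regions had nearly the same ends in POL2 and FOXA2 lists, within 500 bp at both ends and with a POL2 domain of at least 2 kb. In the adult POL2 list these were chr1:180335200-180337399, chr4:133368800-133371999, chr9:21419200-21421799, chr14:56178000-56180199, chr17:39979800-39985799, and chr18:24178000-24180199. All of them matched adult FOXA2 intervals. At PD12, 3 domains did so, also with adult FOXA2 intervals, and the domain on chromosome 1 was present at both stages. The adult FOXA2 list held 10235 intervals against 807 at PD12, and the part of list length in these matches was not tested. The lists of both antibodies had nearly the same extent at these positions, and the part of signal common to both antibodies was not tested.

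At the scale of 1 Mb, cover at the stages followed the same map. Over 2477 windows on the 19 chromosomes, Spearman's rho between PD12 and adult cover was 0.93 and Pearson's r was 0.91, given as a description, since the windows share 2 libraries and the density of genes and of mappable sequence. Neither stage had cover in 711 windows. The adult had more cover in 1368 windows and PD12 in 383. The densest window at both stages was at 80 to 81 Mb on chromosome 10, with 361.8 kb covered at PD12 and 383 kb in the adult, next to 79 to 80 Mb with 320.2 and 348.6 kb. The largest adult excess was at 17 to 18 Mb on chromosome 19, which holds the neighbouring stretches given above, with 2 kb covered at PD12 and 248.2 kb in the adult. It was followed by 107 to 108 Mb on chromosome 5 (35.8 and 239.2 kb) and 31 to 32 Mb on chromosome 6 (40.8 and 225.4 kb). The window at 27 to 28 Mb on chromosome 3 was among the 5 largest without holding any of the 15 stretches of largest excess, with 29.2 and 189.6 kb.

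The largest PD12 excesses per window were smaller, at 91 to 92 Mb on chromosome 8 (118.4 and 47 kb), 137 to 138 Mb on chromosome 7 (117 and 46.6 kb), 43 to 44 Mb on chromosome 16 (196.2 and 126.6 kb) and 125 to 126 Mb on chromosome 5 (191 and 121.8 kb). The chromosome 10 window at 5 to 6 Mb had the second highest PD12 cover of all, 321 kb, and 266.2 kb in the adult. Large regions had no domain at either stage, with 503 gaps of at least 1 Mb that made up 1148 Mb. The longest were at chr15:12749600-25735199 (13.0 Mb) and chr1:108693600-120188599 (11.5 Mb).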

How the data were processed

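POL2 intervals of both stages were analysed, and FOXA2 intervals were set against them. The submitters' processing notes name BWA. The caller, its threshold, the part played by the input and the genome build were not stated there or in the headers. The deposited lists give chromosome, start and end, per the file headers, with no signal, count or score, so depth is unknown. All POL2 starts and ends lay on a 200 bp grid, and overlaps were counted on it. Stretches are domains of both stages joined across gaps of up to 5 kb, and those of 10 kb or more were compared by covered share. A difference of 50 points is the call.

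The planned comparison of gene bodies and of gene lists was not run, because no annotation of the files' build was used here. The same rules were applied to stretches: the 15 with most cover at each stage, with the largest excess in bases, and with the largest difference in share. Members, lists and rules were chosen with earlier results of these data known. Binomial intervals are exact (Clopper-Pearson, 95%). The interval functions were tested on simulated lists, and 12 of 12 checks matched. Python 3.11.15, numpy 2.4.6, pandas 2.3.3, scipy 1.17.1 and matplotlib 3.10.9 were used.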

Additional observations from a re-analysis of the deposited data

How the results depend on the processing

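Bases in both lists were 72.0% of PD12 and 53.3% of adult cover. They were 74.8% and 54.4% with gaps of up to 5 kb joined in each list, 59.7% of either with narrow domains dropped from the adult list until bases were equal, and 68.1% and 52.6% without domains under 5 kb. Domains with at least 50% of their bases in the other list were 71.7% and 46.6%. Bases covered at 1 stage alone lay in overlapping domains for 58.0% (PD12) and 36.03% (adult), and for 66.1% and 52.9%, 28.5% and 48.5%, and 43.8% and 30.6% under the first 3 of these settings. With equal bases, the adult share was thus the higher one. Stretches more covered in the adult numbered 805, against 1473 at a threshold of 25 points, 380 at 75 points, 421 with stretches joined across 20 kb, 265 for stretches of at least 20 kb and 1920 for at least 5 kb. Those more covered at PD12 numbered 228, against 566, 96, 132, 44 and 643, and 416 with equal bases. The adult number was the larger under all 10 alternatives run. Of 38 alternative values, 13 stayed within 1.5 times (counts) or nearly equal (shares without the widest stretch), and 25 moved. Shares were held to a narrower limit than counts. A share of 71.7% against 72.0% was thus labelled as moved, and an adult count of 553 with equal bases, against 805, as the same. Settings of stretch length and joining, and the run without the widest stretch, were chosen after the data were seen. Alternatives for gene bodies, gene length and gene lists were not run. No paired analysis was possible because the stages have 1 POL2 library each. The lists give no depth, so the effect of depth on their length was not tested.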

Other observations

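The X chromosome was outside the comparison and is given as values. It held 181 POL2 domains at PD12 and 294 in the adult, covering 0.786 and 1.20 Mb, a ratio of 1.52 that is near the upper end of the range over chromosomes 1 to 19. Bases in both lists were 65.4% of the PD12 cover there, below the lowest of the 19 chromosomes (66.2%). Of 51 stretches of at least 10 kb, 15 (29.4%, 17.5 to 43.8) were more covered in the adult by 50 points or more and 3 (5.88%, 1.23 to 16.2) at PD12. The largest adult excess on X was a single adult domain of 33 kb at 166406200 to 166439199 with no PD12 cover. The largest PD12 excess was at 74877200 to 74896999, with 14.4 kb covered at PD12 and none in the adult. The longest stretch, 17812600 to 17865999, had 17.8 kb covered at PD12 and 35 kb in the adult.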
